A study of Mus musculus with 2 samples.

Results

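Processed pseudogenes, copies of messenger RNAs pasted back into the genome, were described in the liver RNA of adult C57BL/6J mice. The members were the genes listed in both gene tables whose type in the GENCODE M21 annotation was processed pseudogene (5349 genes) or transcribed processed pseudogene (183 genes). This gave 5532 of 43346 mouse genes. Total RNA longer than 200 nucleotides had been sequenced from liver of mice aged 8 weeks, in 2 libraries that form 1 group, with no treatment or genotype named beyond the strain. The libraries have separate biosample identifiers but share 1 donor identifier, the sex was not collected, and nothing says that they came from separate animals, so the spread between them may be technical. With 1 group there was no contrast to test, and every comparison below is a description without a p-value.

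A processed pseudogene arises when the reverse transcriptase of a LINE element copies a spliced messenger RNA into DNA that is inserted elsewhere in the genome. The copy therefore lacks the introns of its parent gene and usually its promoter, and it gathers mutations with age. Housekeeping genes that are strongly transcribed in the germ line, such as those for ribosomal proteins and Gapdh, have left many copies. In RNA-seq, a read from a young copy can match its parent letter for letter, and a quantifier must then divide such reads among the matching genes.

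The sequences below show, for 6 parents, a stretch where a copy differs most from the coding gene. Of the runs aligned without a gap, the one with the most differing bases was taken. Where there are differences, the runs therefore show more of them than the copies have on average. The identity to the parent over the whole alignment was 99.5% for Gm5424 and 99.8% for Gm10132 and Gm10335. It was 92.4% for Zbed4-ps2 and 89.5% for Gm11799. Each run is 100 bases of the sense strand inside the parent's coding sequence, 5′ to 3′, from GENCODE M21 transcripts on mm10, and capitals mark the bases that differ between the sequences compared. The parent runs cross 1 exon junction in Gapdh and Rpl23a, 2 in Rpl5, Ass1 and Rpl29, and 0 in Zbed4, while each copy is a single uninterrupted block. Over this run Gapdh (chr6:125163360-125165293, minus strand) is identical to Gm10359 (chr5:105863603-105863702, minus strand) and Gm12671 (chr4:91852570-91852669, minus strand).
Gapdh, Gm10359 and Gm12671: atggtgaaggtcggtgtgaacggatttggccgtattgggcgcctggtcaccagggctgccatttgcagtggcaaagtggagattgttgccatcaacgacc
Rpl5 (chr5:107900644-107902048, plus strand) is likewise identical to Gm15500 (chr7:114706064-114706163, minus strand), the member with the most counts.
Rpl5 and Gm15500: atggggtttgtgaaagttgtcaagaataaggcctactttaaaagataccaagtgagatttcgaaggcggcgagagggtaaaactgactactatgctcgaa
Ass1 (chr2:31481130-31488586, plus strand) and Gm5424 (chr10:62071452-62071551, plus strand) differ at 2 bases.
Ass1: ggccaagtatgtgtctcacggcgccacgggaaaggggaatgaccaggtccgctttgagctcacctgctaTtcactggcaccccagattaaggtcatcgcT
Gm5424: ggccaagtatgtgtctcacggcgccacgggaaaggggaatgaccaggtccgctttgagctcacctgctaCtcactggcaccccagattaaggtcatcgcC
Rpl23a (chr11:78181555-78182863, minus strand) differs at 1 base from Gm10132 (chr14:77252067-77252166, minus strand) and at 1 other base from Gm10335 (chr10:14523226-14523325, plus strand).
Rpl23a: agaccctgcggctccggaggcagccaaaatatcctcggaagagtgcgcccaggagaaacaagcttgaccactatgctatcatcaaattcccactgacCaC
Gm10132: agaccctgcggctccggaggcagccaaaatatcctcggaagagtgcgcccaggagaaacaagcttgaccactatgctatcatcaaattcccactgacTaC
Gm10335: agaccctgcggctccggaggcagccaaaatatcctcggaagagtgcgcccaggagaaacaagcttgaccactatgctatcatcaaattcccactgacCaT
Zbed4 (chr15:88780709-88780808, plus strand) and Zbed4-ps2 (chr7:13753762-13753861, plus strand) stand for an older copy, with 15 differences.
Zbed4: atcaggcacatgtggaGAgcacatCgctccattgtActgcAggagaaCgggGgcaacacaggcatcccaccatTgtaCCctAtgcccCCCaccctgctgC
Zbed4-ps2: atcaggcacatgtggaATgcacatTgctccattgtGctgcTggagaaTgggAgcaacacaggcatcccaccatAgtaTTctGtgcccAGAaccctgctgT
Rpl29 (chr9:106429987-106431075, plus strand) and Gm11799 (chr4:8167245-8167344, minus strand) differ at 13 bases.
Rpl29: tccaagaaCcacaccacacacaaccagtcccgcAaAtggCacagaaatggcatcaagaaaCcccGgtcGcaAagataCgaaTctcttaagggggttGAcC
Gm11799: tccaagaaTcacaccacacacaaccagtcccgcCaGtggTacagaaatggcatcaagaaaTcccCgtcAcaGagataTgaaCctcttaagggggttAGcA

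The depth over endogenous genes was 83816487 expected counts for replicate 1 and 71068191 for replicate 2, where an expected count is the estimated number of fragments of a gene after shared reads are divided. All 7 hepatocyte markers, among them Alb and Ttr, had at least 1 endogenous TPM (the length-scaled abundance, rescaled without spike-ins) in both libraries. Of the 3 cholangiocyte markers, 0 reached that level in both, with summed levels of 0.652 TPM in replicate 1 and 0.643 in replicate 2. By deposited TPM, the median log2 ratio of replicate 2 over replicate 1 was 0.51 over all genes with a mean count of at least 100. The 7 hepatocyte markers summed to 12023 and 19571 TPM, and the sums that follow are to be read against that rise. The 4 pancreatic acinar markers summed to 76.7 TPM in replicate 1 and 26.7 in replicate 2, the 3 skeletal muscle markers to 3.08 and 0.0201, the 3 B cell markers to 1.14 and 8.90, and the 3 erythroid markers to 89.6 and 178. The part of such other tissue or cells in the values of the pseudogenes was not tested.

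Most processed pseudogenes had no counts at all. Of 5532 members, 4302 (77.8%) were listed at 0 in both libraries and 347 (6.27%) reached at least 10 expected counts in both, which is called detected here. Of 21474 protein-coding genes in the same tables, 61.1% were detected, and so were 83 of 2130 unprocessed pseudogenes. The members held 121990 counts in replicate 1 and 102883 in replicate 2, or 0.145% ± 0.00055 of endogenous counts (SD, n = 2). Their share of endogenous TPM was 0.131% ± 0.0217. Part of that share was Gm12338, at 253 and 387 TPM on a model of 192 nucleotides, described below. Protein-coding genes held 72.6% of endogenous counts and 14.3% of endogenous TPM, as means of both libraries. Transcribed processed pseudogenes, for which the annotation records evidence of transcription, were detected in 35 of 183 cases (19.1%), against 312 of 5349 (5.83%) of the others.

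The counts lay in few members. Gm15500 alone held 15% ± 0.836 of all member counts (SD, n = 2), the 5 highest members held 35.8% ± 0.967 and the 15 highest 59.0% ± 1.91. The 109 members with a mean count of at least 100 held 89.2% ± 0.760. Chromosome X carried the largest number of members, 947, of which 18 were detected, and chromosome Y carried 94, of which 0 were detected in both libraries.

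Each member was assigned the coding gene most similar to its exonic sequence, called its parent here, provided that the alignment covered at least 50% of the member with an identity of at least 80%. A parent was found for 4369 members, and 4990 of the 5532 members were a single exon block. These members came from 1538 parents, of which 1002 had 1 member and 79 had at least 10, together 1851 members. Gapdh, the glycolytic enzyme that oxidises glyceraldehyde 3-phosphate, had by far the most, with 283 copies, followed by Rpl7a with 87 and by Hmgb1, Rpl21 and Rps2 with 72 each. Of the 283 Gapdh copies, 219 were at 0 in both libraries and 16 were detected.

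Grouped by the function of the parent, copies of cytosolic ribosomal protein genes were the largest group by members and by counts. There were 1176 of them from 85 parents, 92 were detected, and they held 43.9% ± 2.82 of member counts (SD, n = 2). Copies of 9 glycolytic genes numbered 322, of which 19 were detected, and held 20.5% ± 3.48, from 18.1% in replicate 1 to 23.0% in replicate 2. Copies of respiratory chain genes held 3.84% ± 0.0240, with 12 of 117 detected, and copies of translation factor genes 2.26% ± 0.0399, with 13 of 97 detected. The 93 copies of chaperone genes held 2.10% ± 0.283 and the 198 copies of chromatin protein genes, such as Hmgb1, 0.693% ± 0.106. The list of secreted liver proteins, chosen by symbol, took 2 copies: Mup-ps22 was at 0 in both libraries, and Apoo-ps, with 173 and 134 counts, is a copy of Apoo, which encodes a mitochondrial inner membrane protein. Copies of all other parents numbered 2127 with 22.3% ± 0.661 of member counts.

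Detection was most frequent among the copies closest to their parent. Of members with 80 to 85% identity, 4 of 683 (0.586%) were detected, of those with 95 to 98%, 45 of 778 (5.78%), of those with 99% to under 100%, 122 of 359 (34%), and of the 108 identical over the aligned stretch, 63 (58.3%). These 108 members held 60.6% ± 1.42 of member counts (SD, n = 2), and the members with 99% to under 100% held 27.1% ± 1.42. The 327 detected members with a parent had a median identity of 99.3%, against 90.6% in the 3249 that were at 0 in both libraries. Among close copies, detection was also more frequent where the parent had more counts. Among members with at least 98% identity, 5 of 106 (4.72%) were detected where the parent had a mean count under 100, 25 of 134 (18.7%) where it had 100 to 1000, 132 of 423 (31.2%) where it had 1000 to 10000, and 65 of 143 (45.5%) above that. For members with 90 to 98% identity the same 4 classes gave 2.96%, 2.86%, 3.86% and 6.89%, with no such order between the first classes. For members with 80 to 90% identity the same 4 classes gave 0 of 157, 2 of 272 (0.735%), 8 of 766 (1.04%) and 7 of 427 (1.64%) detected.

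**Figure D1:**
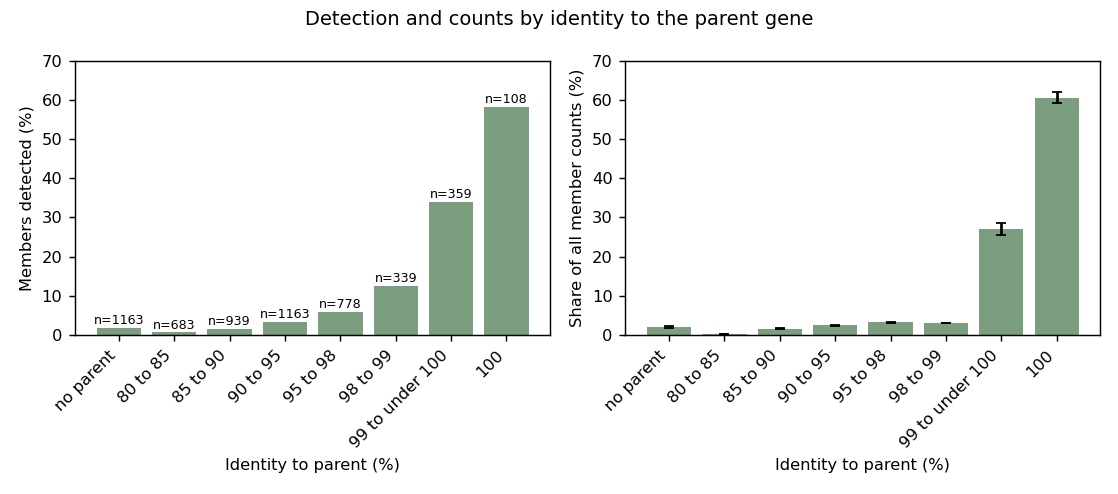
Left, percent of processed pseudogenes with at least 10 expected counts in both libraries, by percent identity to the parent, with the number of members above each bar. Right, share of all member counts in each class as the mean of the 2 libraries with the SD as error bar. The class of 100% identity stands at 58.3% detected and holds 60.6% of the counts.

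The member with the most counts was Gm15500, a transcribed copy of Rpl5, the large-subunit protein that binds 5S ribosomal RNA (chr7:114705217-114706235). Gm15500 had 18963 counts in replicate 1 and 14776 in replicate 2, while Rpl5 itself had 3857 and 3907. The posterior SD, the uncertainty of the count that remains after shared reads are divided, was 0.466% of the posterior mean count in replicate 1 and 0.687% in replicate 2. Of the 100-base windows of Gm15500, 99.9% also occur in Rpl5 or another gene. The copy thus had a higher count than its parent in both libraries, with a small stated uncertainty and almost no window of its own.

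Pgk1-rs7, a copy of the glycolytic phosphoglycerate kinase gene Pgk1, had 9668 and 6072 counts against 19641 and 17935 in Pgk1. Rps6-ps4, a copy of the small-subunit ribosomal protein gene Rps6, had 6241 and 4701 counts against 6699 and 7754. Rpl15-ps3 had 4196 and 3083 counts, and its parent Rpl15 6313 and 6121. All windows of these 3 copies also occur in another gene, and their posterior SDs were between 1.46% and 2.49% of the posterior mean count. Pgk1-rs7 was counted on a model of 1731 nucleotides, longer than the M21 transcript that its windows came from. The 3 copies were lower in replicate 2 than in replicate 1 in unscaled counts and their parents' counts moved less or the other way.

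Gm5424, a copy of Ass1, was the only one of the 15 highest members whose parent is a urea cycle enzyme, argininosuccinate synthase. It had 5206 and 5565 counts, which is 3.34% and 2.84% of the 155867 and 195825 counts of Ass1. Its identity to Ass1 is 99.5%, and 54.5% of its windows occur in Ass1 and the others in no other gene of the annotation. Identity and windows refer to the M21 transcript, which is shorter than the counted model of 1595 nucleotides. The posterior SD was 0.952% and 0.989% of the posterior mean count.

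The Gapdh copies Gm10359, Gm12671 and Gm7336 showed how far a count can be undetermined. Gm10359 had 4488 counts in replicate 1 and 5065 in replicate 2, Gm12671 had 2743 and 5065, and Gm7336 had 2743 and 5065. The last pair thus had the same expected count in each library, and in replicate 2 all 3 copies did. Their posterior SDs were 80.9% and 69.8% of the posterior mean count for Gm10359, 59.9% and 41.9% for Gm12671, and 82.5% and 65.9% for Gm7336. The posterior mean counts differed from the expected counts. They were 3118 and 4473 for Gm10359, 4110 and 6518 for Gm12671, and 2687 and 4134 for Gm7336. The posterior SDs in counts were 2523 and 3123, 2462 and 2729, and 2218 and 2724 in the same order. All windows of Gm10359 and Gm12671 occur in each other, in Gm7336 and in Gapdh. The expected counts of the 3 copies summed to 9973 in replicate 1 and 15194 in replicate 2 beside 26847 and 31541 for Gapdh. The file gives Gm7336 a length of 1002 nucleotides, whereas the M21 transcript has 1232, so the window shares of Gm7336 refer to a longer model than the one counted.

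Other copies of ribosomal protein genes among the 15 highest included Rpl27-ps3 (3688 and 3275 counts), Gm7536 of Rpl27a (3387 and 1069), Gm10275 of Rpl12 (1393 and 1546) and Gm9843 of Fau (955 and 1712). Also among the 15 were Ndufb4c, a copy of the complex I subunit gene Ndufb4, with 2696 and 2113 counts, and Gm10177, a copy of the translocon subunit gene Sec61g, with 2162 and 1585. Under the TMM scaling described further on, Gm7536 was the only one of the 15 with more than a 2-fold difference between the libraries. By TPM, Gm12671 and Gm7336, with 11 and 31.4 each, and Gm9843, with 10.3 and 28.1, also passed 2-fold. By length-scaled level the order was another: Gm12338, a copy of the cytochrome oxidase subunit gene Cox7c, led with 253 TPM in replicate 1 and 387 in replicate 2, from 397 and 573 counts. The model of Gm12338 is 192 nucleotides long, of which 4.97 (replicate 1) and 7.35 (replicate 2) were left as effective length after the fragment length was taken off, so each count weighs heavily in its TPM. Gm15500 followed with 74.5 and 89.8 TPM on an effective length of 808 and 818 nucleotides. Among transcribed processed pseudogenes the rule also named Gm9797, a copy of the mitochondrial import gene Timm8a1, with 861 and 652 counts.

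**Figure D2:**
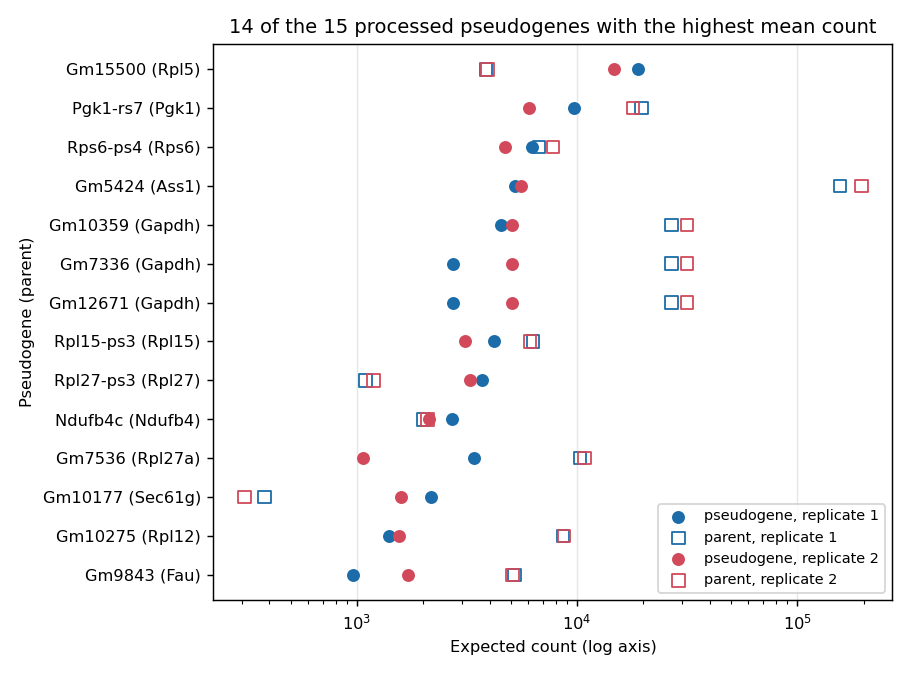
Expected counts (log axis) of 14 of the 15 processed pseudogenes with the highest mean count, filled circles, and of their parents, open squares, in replicate 1 (blue) and replicate 2 (red). Counts are not divided by length. Gm15500, Rpl27-ps3, Gm10177 and Ndufb4c lie above their parents in both libraries, and Gm5424 lies far below Ass1.

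Posterior SDs were larger in processed pseudogenes than in coding genes of the same filter. Over the 109 members with a mean count of at least 100 the median was 4.90% of the posterior mean count in replicate 1 and 5.48% in replicate 2. The median of 10980 protein-coding genes was 0% in both, and that of 41 unprocessed pseudogenes 0.598% and 0.444%. Of the 109 members, 20 had a relative posterior SD under 1% in both libraries, 11 of these at 0, and 19 had one over 10% in both. Among protein-coding genes 96.9% were under 1% in both and 0.282% over 10%. The median was 2.10%, as a mean of both libraries, over the 18 members with a mean count of at least 1000.

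How far reads may come from other genes was measured from the sequence alone, as the percent of the 100-base windows of a member found letter for letter, on either strand, in a transcript of any other M21 gene. The median over the 109 members was 85.5% for any gene, 78.3% for the parent and 1.98% for other processed pseudogenes. All windows were shared in 39 members, at least 50% but not all in 49, fewer in 13, and none in 8. These 4 classes held 45.1% ± 1.37, 38.7% ± 0.148, 3.48% ± 0.140 and 1.89% ± 0.325 of all member counts (SD, n = 2). Their median relative posterior SDs were 6.78%, 6.31%, 0.565% and 0% in replicate 1 and 9.51%, 6.37%, 0.549% and 0% in replicate 2. Windows came from the M21 models, and 37 of the 109 members were counted on a model of another length, among them Pgk1-rs7. Sharing of these windows did not fix the posterior SD. Of the 39 members with every window shared, 11 had a relative posterior SD under 5% in both libraries, such as Rps6-ps4 and Ndufb4c. Across the 109 members Pearson's r between both measures was 0.339 and Spearman's rho 0.471, where members share the libraries and often a parent.

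**Figure D3:**
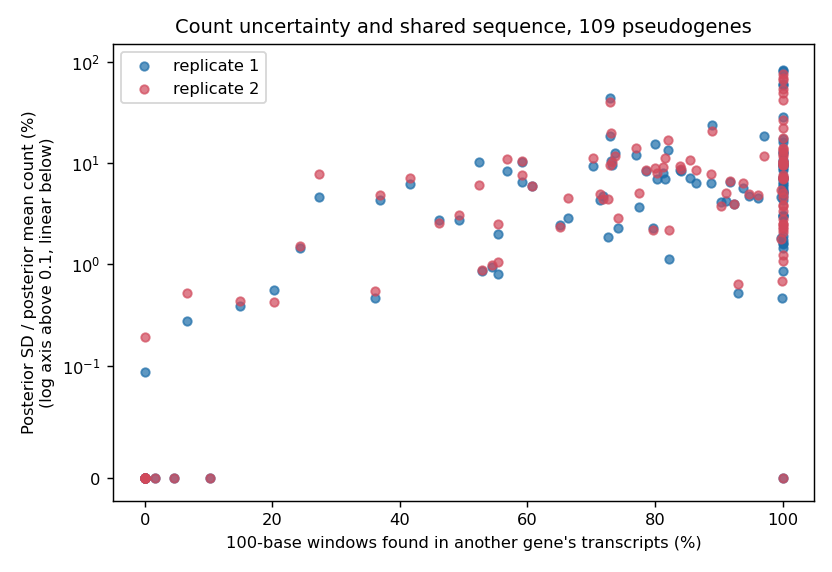
Relative posterior SD in percent (log axis above 0.1, linear below) against the percent of 100-base windows found in another gene's transcripts, for 109 processed pseudogenes with a mean count of at least 100, in replicate 1 (blue) and replicate 2 (red). Members with no shared window sit at or near 0, and the highest values, above 50%, are members with every window shared.

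Against their parents most members had small counts. Over the 103 members of this filter that had a parent, the member's count was a median of 5.30% of the parent's count in replicate 1 and 4.36% in replicate 2, or 4.83% ± 0.665 (SD, n = 2). As counts per effective length, which sets genes of different length side by side, the medians were 11.9% and 10.6%. By counts 14 members were under 1% of the parent, 55 between 1% and 10%, 26 between 10% and 100%, and 8 above the parent. The 8 were Gm15500, Rpl27-ps3, Ndufb4c, Gm10177, Gm6741, Gm4735, Gm10557 and BC023105. Gm10557 shares 93.8% of its windows with other genes, among them 74.6% with the unprocessed pseudogene 6820431F20Rik, and not with its parent Cdh11. Per effective length 12 members were above the parent in both libraries. Gm10177 had 2162 and 1585 counts against 380 and 308 in Sec61g, with 93.0% of windows shared and a relative posterior SD of 0.528% and 0.648%. BC023105 had 321 and 197 counts against 47 and 30 in its parent Gm4841, shared no window with any gene and had a posterior SD of 0.

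A small set of copies shared few windows with the transcripts of other genes. Of the 109 members, 11 shared under 10% of their windows, and each of these had a relative posterior SD of at most 0.524% in either library. Of these 11, 4 lie in an intron of a coding gene on the same strand: Gm5970 in Gm4951, Zbed4-ps2 in Sult2a2, Gm7497 in Colec12 and Gm15712 in Zbtb20. Windows were compared with annotated transcripts, not with the introns around a member. Gm8941, Gm5345 and Gm7497 are old Gapdh copies of 87.2%, 90.7% and 90.4% identity. Gm8941 had 621 and 232 counts, Gm5345 83 and 141, and Gm7497 108 and 104, beside 26847 and 31541 for Gapdh and 5955 and 3683 for Colec12, the host of Gm7497. Gm5970, an 88.1% identical relative of the interferon-inducible GTPase gene Iigp1, had 773 and 570 counts, and its host Gm4951 had 10599 and 7838. Their log2 ratios of replicate 2 over replicate 1, scaled as described further on, were both -0.35. Rps4l, a transcribed copy related by name to the ribosomal protein S4 genes, had 387 and 481 counts, and no parent was found for it under the thresholds used. Gm6548, a copy of the elongation factor gene Eef1a1, had 360 and 274 counts. Gm11799, the highest copy of Rpl29 and outside this set by its mean count, had 67 and 37 counts with 0 shared windows and lies in an intron of Car8, which had 9787 and 6589.

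Position in other genes also went with detection. Of the 5532 members, 516 lie in an intron of a coding gene on the same strand, called the host here, and 92 of them (17.8%) were detected, against 255 of 5016 elsewhere (5.08%). Among members with an identity under 95% or no parent, 49 of 373 (13.1%) inside such introns were detected and 26 of 3575 (0.727%) elsewhere. Inside introns this share was 11 of 264 (4.17%) for hosts with a mean count under 1000, 31 of 93 (33.3%) for hosts with 1000 to 10000, and 7 of 16 (43.8%) for hosts above that. The part of unspliced host RNA in these counts was not tested. A further 99 members overlap an exon of another gene on the same strand and 160 an exon on the opposite strand, and whether the counting used strand is not given in the sources used here.

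**Figure D4:**
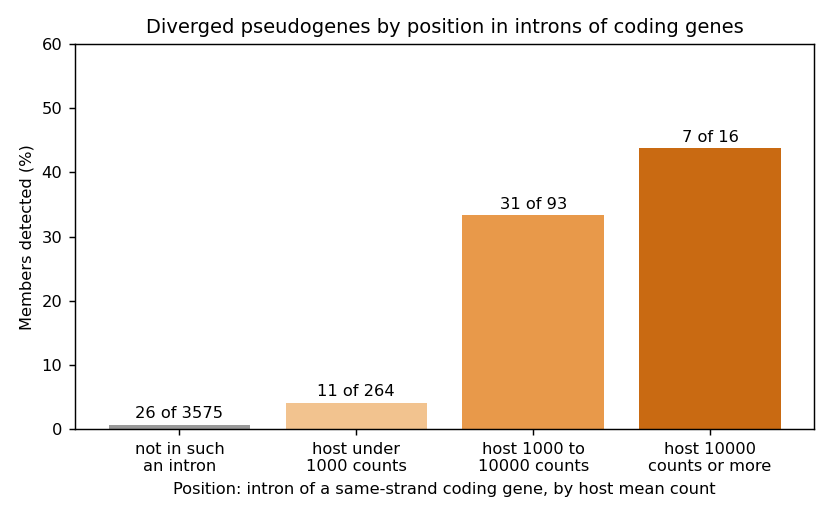
Percent of processed pseudogenes with an identity under 95% or no parent that were detected (at least 10 expected counts in both libraries), for those not in an intron of a same-strand coding gene and for those in one, by the host's mean count. Numbers above the bars are detected members of all members, from 26 of 3575 to 7 of 16.

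The libraries were then set side by side as the log2 ratio of replicate 2 over replicate 1 of TMM-scaled CPM (counts scaled to the library total) plus 0.05. Of the 109 members, 18 (16.5%) differed by more than 2-fold, 15 higher in replicate 1 and 3 higher in replicate 2. Of all 11582 mouse genes with a mean count of at least 100, 3.45% did, 1.84% higher in replicate 1 and 1.61% higher in replicate 2. Among the 41 unprocessed pseudogenes with such a mean count, 4 (9.76%) did, 3 higher in replicate 1 and 1 higher in replicate 2. Of members with a mean count of 100 to 1000, 17 of 91 (18.7%) passed, against 4.71% of other genes in that range. The median ratio of the 109 members was -0.27 on the log2 scale, with 73 below 0, and that of all genes -0.01. For the 41 unprocessed pseudogenes the median was -0.15. Scaling to spike-in totals or the use of deposited TPM moved the median of all genes to 0.27 and 0.51 and that of the members to 0.015 and 0.23. The members' median minus that of all genes lay between -0.28 and -0.22 under each scaling, pseudocount and filter tried. Which members passed 2-fold moved with the scaling: 16.7% of those that passed were higher in replicate 2 under TMM, 45% with spike-ins and 57.1% with TPM.

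Several of these differences were not shared by the parent. Gm10132 had 195 counts in replicate 1 and 857 in replicate 2 (log2 ratio 2.20), Gm10335 had 562 and 155 (-1.75) and Rpl23a-ps3 had 482 and 145 (-1.62). All 3 are copies of Rpl23a, which had 4384 and 3549 counts (-0.22), and their relative posterior SDs ran up to 43.5%. Summed over all 44 Rpl23a copies the counts were 1277 and 1189, a log2 ratio of -0.01. Rps12l1, a copy identical to Rps12, had 291 counts in replicate 1 and 10.5 in replicate 2 (-4.28), with a relative posterior SD of 76.1% in replicate 2, while Rps12 had 11399 and 13242. For Rps12l1, 2 coding genes had the same highest score as parent, and Rps12 was the 1 taken. All windows of Rps12l1 also occur in the coding gene Rps12-ps3 and in Gm44510. Rps12l1 also lies opposite an exon of Gm44510. Gm7536 had 3387 and 1069 counts (-1.57) with a relative posterior SD of 1.76% and 4.63%, and its parent Rpl27a had 10292 and 10771 counts (0.15).

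Gm15725 was listed at 0 in replicate 1 and had 344 counts in replicate 2. Its sequence resembles Actb, the beta-actin gene, at 91.8% identity, but it lies within an exon of Lrrc58 on the same strand, and all of its windows occur in Lrrc58. Gm12715, a copy of Actg1, had 52 and 154 counts (1.60), and Actg1 moved in the same direction from 3560 to 5907 (0.82). Rps16-ps2 had 206 and 50.1 counts (-1.88), against 1817 and 2039 in Rps16.

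For 2 members with a large difference the host had a difference of the same direction. Zbed4-ps2, with 806 counts in replicate 1 and 219 in replicate 2 (-1.77), lies in an intron of the sulfotransferase gene Sult2a2, which had 4642 and 887 counts (-2.29). Its parent Zbed4 had 504 and 568 counts (0.26), and the posterior SD of Zbed4-ps2 was 0 in both libraries. Rnf170-ps, with 496 and 149 counts (-1.62), lies in an intron of the cytochrome P450 gene Cyp2b13, which had 17573 and 4471 counts (-1.89). Its parent Rnf170 had 2431 and 1599 counts (-0.51), and 72.6% of its windows are shared. Of the 109 members 11 have a host, and the other 9 had smaller ratios, from -0.77 for Gm15542 to 0.62 for Gm6493. Gm6493, a copy of Tnpo1 in an intron of the kininogen gene Kng2, had 460 and 669 counts while Kng2 had 21599 and 17553; the ratios of member and host had opposite signs. Over the 11 members the signs were the same in 5 and opposite in 5, namely Gm6493, Vcp-rs, Gm15920, Gm7497 and Gm15712. Pearson's r over the 11 was 0.767 and Spearman's rho 0.245, with a host at 0 in both libraries entered as a ratio of 0. The remaining member, Ndufb4c, lies in an intron of Mroh5, which was at 0 in both libraries.

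**Figure D5:**
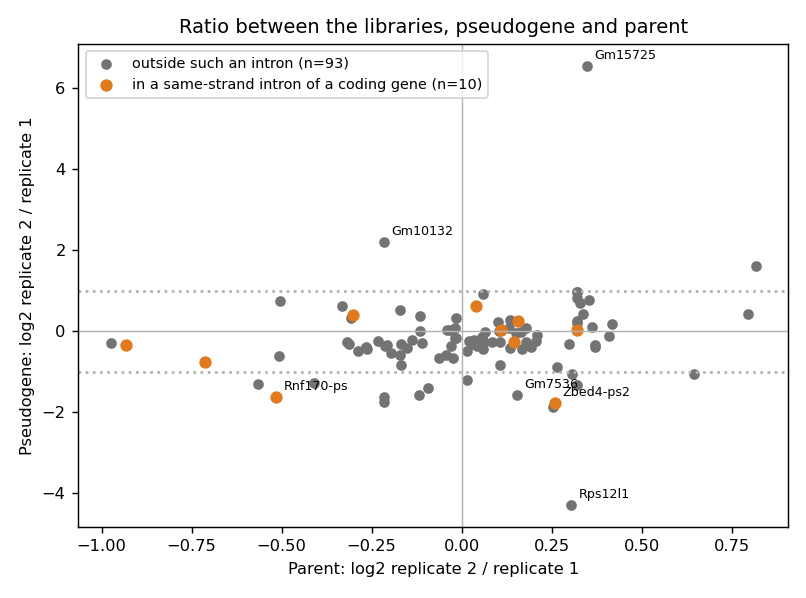
Log2 ratio of replicate 2 over replicate 1 (TMM-scaled CPM plus 0.05) of 103 processed pseudogenes against that of their parents, with dotted lines at a 2-fold difference of the pseudogene. Orange points are the 10 members in an intron of a same-strand coding gene. The parents stay within 1 of 0 while members such as Gm15725 and Rps12l1 lie far outside. Gm15725 was at 0 in replicate 1, so its plotted value depends on the pseudocount.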

How the data were processed

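The authors quantified each library on its own, on mm10 with GENCODE M4 as annotation, according to notes that accompany the files. Neither aligner nor quantifier is given in the sources used here. The authors' expected count is an estimated, unnormalised number of fragments in which shared reads are divided among genes, per the file headers. The deposited posterior mean and posterior SD describe the uncertainty of that count. The deposited TPM values are length-scaled over all rows of the file, and were rescaled here without spike-ins.

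Types, positions and transcripts came from GENCODE M21 on the same assembly, which held 42462 of the 43346 listed mouse genes. The length of 520 members (37 of those with a mean count of at least 100) differed between both annotations. Parents were found with blastn 2.17.0 (word size 14, E-value 1e-10) among coding genes listed in both files, leaving out genes whose exons overlap the member, and the highest bit score was taken. For 191 members more than 1 gene had that score, and 1 was taken by a fixed order of symbols. TMM factors from edgeR 4.0.16 were 0.950 and 1.05, computed on rounded expected counts, and DESeq2 1.42.0 gave alternative size factors. The pseudocount of 0.05 equals 3.98 counts in replicate 1 and 3.74 in replicate 2. The ratio was tried on simulated counts without shared reads, and the search for parents on whole coding transcripts with simulated substitutions. Neither simulation covered the division of reads between copy and parent, or shortened copies. Python 3.11.15 was used for the rest.

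Members and gene lists were chosen with earlier results of these data known. Named genes are the 15 highest members by count, the 5 highest by TPM, the 5 highest transcribed members, the 5 highest and 5 lowest by relative posterior SD (mean count of at least 1000) and by ratio (at least 100), and the highest copy of each of the 8 parents with most members. Of the 15 highest members, 1 is not reported here because it is withheld for evaluation. Other members were named after their values were seen. With 2 libraries, precision is given as their SD and as the posterior SD. Alternatives are given in the closing section.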

Additional observations from a re-analysis of the deposited data

How the results depend on the processing

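No paired analysis was possible because both libraries belong to the same group. Without replicate 1 or without replicate 2, detected members were 393 and 465, their share of counts 0.145% and 0.146%, the median relative posterior SD 5.48% and 4.90%, and the median percent of the parent 4.36% and 5.30%. A minimum of 100 counts left 94 detected members and 1 TPM 93. The share of counts was 0.141% without members that overlap an exon of another gene on the same strand. Members that overlap an exon only on the opposite strand were kept there. It was 0.123% without Gm15500 (chosen after seeing the data), and the share of TPM was 0.131%. The median relative posterior SD was 5.70% from a mean count of 10 and 2.10% from 1000. From a mean count of 10, 100 of 421 members differed by over 2-fold, and the share of all genes at that minimum is not given here. Of the 109 members with a mean count of at least 100, 76 had no relative posterior SD over 10%, and 6 of these differed by over 2-fold (chosen after seeing the data). The share of other genes under that filter is not given here either. A low count in 1 library itself raises the relative posterior SD, so that filter is not independent of the difference. The median member ratio was -0.28 with DESeq2 size factors, -0.23 with a pseudocount of 0.5, -0.22 from a mean count of 10 and -0.27 with posterior mean counts. It turned positive, to 0.015 with spike-in totals and 0.23 with deposited TPM. The median of shared windows was 93.8% for 50 bases, 89.5% for 75, 55.4% from a mean count of 10 and 0% with no filter on counts. The median percent of the parent was 0.876% from a mean count of 10 and 11.2% per effective length. The cause of these differences was not tested. Posterior SDs cover the division of shared reads within a library and not the spread between animals.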
